A study of Capra hircus with 4 samples.

Results

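The group described here consists of the myogenic transcription factors and myostatin of goat skeletal muscle. It was defined by gene name as MYOD1, MYF6, MYOG, MEF2A, MEF2C, MEF2D, SIX4, PAX7 and MSTN, and a member was measured where the deposited table that pairs assembled transcripts (unigenes) with goat genes carries that name. Of the 9 genes, 7 were found among 11208 goat gene names, with 9 unigenes, and MYOD1 and PAX7 were left out because the table does not hold their names. The rule takes genes by name and uses no measured value, but the list of names was chosen with earlier results of these data known.

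Skeletal muscle identity is set by basic helix-loop-helix (bHLH) factors, of which MYOD1 and MYF5 commit cells to the lineage, MYOG drives fusion and differentiation, and MYF6 (MRF4) is the member that stays high in adult fibres. The MADS-box factors MEF2A, MEF2C and MEF2D bind with them at muscle genes and respond to calcium signals through class II histone deacetylases, and SIX4 is a homeobox factor that acts upstream with EYA proteins. PAX7 marks the satellite cells, the stem cells of muscle, and MSTN (myostatin) is a secreted TGF-β family protein that fibres make and that limits muscle growth.

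RNA-seq was performed on longissimus dorsi muscle of Cashmere goats 2 months old, with 1 control library and 3 treatment libraries. The treatment goats received ractopamine, a β2-agonist feed additive, by mouth at 1 mg/kg every morning, and the experiment comprised 28 dosing days followed by 21 withdrawal days. The methods place the sequenced samples on dosing as well as withdrawal days, while the labels give no day for any library and call the treatment libraries replicates. Day and library can therefore not be told apart, and x-folds, the ratios of a treatment library to the control library, were given for each library under its number.

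The libraries held 6675218 to 8533046 counts. Counts on named goat genes were 6086312 in the control library, 3991046 in treatment library 1, 133809 in treatment library 2 and 2697657 in treatment library 3, which is 71.3, 50.1, 1.82 and 40.4% of all counts. Treatment library 2 stood apart, since most of its counts lay on mitochondrial unigenes without a gene name, and 3 counts in it correspond to 22.4 counts per 1000000 named goat counts (CPM), above the control level of MEF2A, SIX4 and MSTN. Relative to named goat counts, muscle fibre markers were abundant in every library, at a summed 85908 to 143795 CPM for 6 of the 10 listed genes. Of the markers of other cells, the 3 adipocyte genes measured of 5 listed summed to 14.8, 111, 859 and 28.5 CPM in the control library and treatment libraries 1, 2 and 3, and the 4 fibroblast genes of 6 to 114, 168, 2220 and 270. The 5 endothelial genes summed to 309, 201, 837 and 398 CPM, and the 3 Schwann cell genes to 20.5, 73.7, 172 and 42.6. The sums in treatment library 2 are relative to its few named goat counts. Relative to all counts, its x-folds were 0.969 to 1.53 for the adipocyte genes and 0 to 1.41 for the fibroblast genes. On that total the 6 muscle fibre genes were at only 0 to 0.0512 of the control level in treatment library 2. Of the leukocyte list, 3 of 5 genes were measured, where PTPRC had 2, 1, 0 and 0 counts, CD14 had 3, 0, 0 and 0, and CD68 had 7, 18, 0 and 3, an x-fold of 3.92 (1.56 to 11.1) in treatment library 1. The part of these cells in the results below was not tested, and in whole muscle fewer cells of a type and less RNA per cell cannot be told apart.

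The sequences on which the counts rest are shown first, because several members belong to families that have a conserved region in common. Below is the most conserved stretch of 120 coding bases of the bHLH region, without gaps, in MYF6 (bases 401 to 520 of unigene c3650_g1), MYOG (bases 299 to 418 of c8035_g1) and unigene c965_g1 (bases 520 to 639), whose best nucleotide match is MYOD1. Capitals mark the 82 bases that all 3 share.
MYF6: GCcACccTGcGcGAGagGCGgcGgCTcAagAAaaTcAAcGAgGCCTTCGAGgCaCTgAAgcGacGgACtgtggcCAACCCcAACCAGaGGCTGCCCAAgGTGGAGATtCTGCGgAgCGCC
MYOG: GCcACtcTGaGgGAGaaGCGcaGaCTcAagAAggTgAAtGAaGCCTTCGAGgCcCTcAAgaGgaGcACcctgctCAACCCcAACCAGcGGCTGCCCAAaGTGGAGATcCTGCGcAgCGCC
MYOD1-matching: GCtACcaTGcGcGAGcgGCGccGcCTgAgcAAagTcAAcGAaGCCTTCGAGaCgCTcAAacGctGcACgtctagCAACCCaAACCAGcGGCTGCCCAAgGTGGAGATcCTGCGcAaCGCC

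MYF6 and MYOG were identical at 94 of these 120 bases (78.3%), and unigene c965_g1 was identical to MYF6 at 92 and to MYOG at 90. The deposited table calls c965_g1 MYF5, at 57% protein identity, although another unigene, c32349_g1, matches goat MYF5 at 100%. The longest run of bases that c965_g1 and c32349_g1 have in common was 11. Such a run cannot tell different genes from separate parts of the same gene. Both unigenes named MEF2A, described below, share a run of only 12. The name MYOD1 is missing from the table, while a sequence that matches it best was counted under another name.

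The first 120 coding bases of MEF2C and MEF2D follow, since they encode the start of the MADS box, which binds DNA. They begin at base 445 of c13660_g2 (MEF2C) and base 450 of c13660_g1 (MEF2D), and capitals mark the bases that both share.
MEF2C: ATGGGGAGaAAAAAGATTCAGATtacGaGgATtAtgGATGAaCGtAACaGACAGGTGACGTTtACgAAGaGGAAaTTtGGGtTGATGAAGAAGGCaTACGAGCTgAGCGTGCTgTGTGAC
MEF2D: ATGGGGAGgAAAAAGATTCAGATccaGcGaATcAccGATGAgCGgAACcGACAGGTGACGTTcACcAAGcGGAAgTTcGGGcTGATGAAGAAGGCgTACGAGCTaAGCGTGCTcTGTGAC

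MEF2C and MEF2D were identical at 99 of the 120 bases (82.5%). The unigenes of MEF2C and MEF2D came from the same assembly component and shared 1 unbroken run of 85 bases, so reads from that run could have been assigned to either gene. For MSTN, the first 90 coding bases (bases 104 to 193 of c2976_g1) are given, with the start codon in capitals, as they identify the transcript that differed most in treatment library 1.
MSTN: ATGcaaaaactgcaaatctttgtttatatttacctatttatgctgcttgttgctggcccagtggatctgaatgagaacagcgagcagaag

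Per length of transcript, MYF6 had the highest level of the 7 genes in the control library at 127 FPKM (fragments per kilobase of transcript and per 1000000 fragments). It was followed by MEF2C at 25.6, MEF2D at 23.7, MYOG at 18.0, MEF2A at 5.19, SIX4 at 2.89 and MSTN at 1.40 FPKM. With 1 control library there is no spread over animals for this order, and the neighbouring levels of MEF2C and MEF2D rest on 1305 and 1166 counts. MYF6 was also the highest in treatment library 1 at 181 FPKM and in treatment library 3 at 27.2 FPKM. MSTN had rank 7 in the control library, rank 4, at 7.90 FPKM, in treatment library 1 and rank 6 in treatment library 3. MYOG went from rank 4 to rank 5, at 2.70 FPKM, in treatment library 1 and to rank 3 in treatment library 3, and MEF2A from rank 5 to rank 7 in each treatment library. In treatment library 2 the levels were 0 to 0.710 FPKM, with MYOG at rank 1, and their order rests on 0 to 25 counts.

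**Figure D1:**
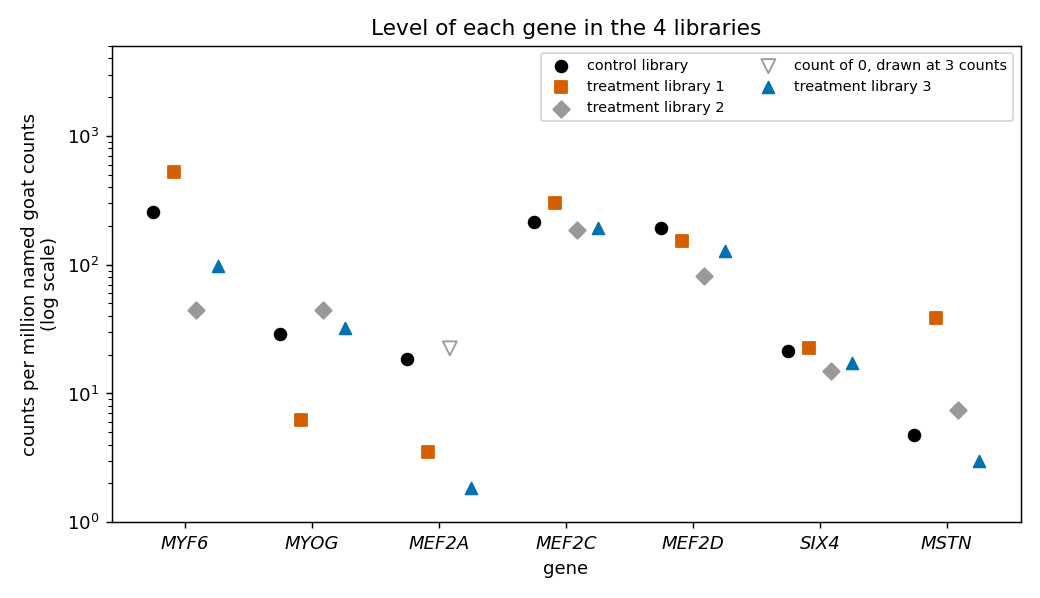
CPM, relative to named goat counts (y axis, log scale) of the 7 measured genes (x axis) in the control library and the 3 treatment libraries, with 1 point for each library and a count of 0 drawn as an open triangle at the level of 3 counts. MSTN reaches 38.3 CPM in treatment library 1 against 2.97 to 7.47 in the other libraries, while MEF2C lies between 187 and 301 in all 4.

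Across all 4 libraries no member passed the test of treatment against control. In edgeR's quasi-likelihood test with Benjamini-Hochberg adjustment over 8633 goat genes, 0 of 7 members had an adjusted p below 0.05, where 51 of all genes (0.591%) did, 0.255% higher and 0.336% lower in treatment, and 2 members had an unadjusted p below 0.05, as did 11.7% of all genes. DESeq2 called 4 of the 5787 genes for which it gave an adjusted p, and 0 of the 6 members among them. It gave no adjusted p for MEF2A, and 0 members had an unadjusted p below 0.05. The test assumes that the lone control library varies like the treatment libraries. Without treatment library 2 the members called were again 0, of 5 genes called in all.

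By the study's limits, with 0.5 counts added, treatment library 1 held 2 members below an x-fold of 0.6 (MYOG and MEF2A), where 37.8% of all genes lay below, and 1 above 3 (MSTN), where 5.13% lay above. Treatment library 2 held 3 members below (MYF6, MEF2A and MEF2D), with 31.3% of all genes below, and 0 above, with 15.7% of all genes above. Treatment library 3 held 2 below (MYF6 and MEF2A), with 38.1% of all genes below, and 0 above, with 2.73% of all genes above. MEF2A was below 0.6 in all 3 treatment libraries, as were 13.5% of all genes, but its value in treatment library 2 is a count of 0 that the added 0.5 sets. The median x-fold of the members was 1.07, 0.878 and 0.664 in treatment libraries 1, 2 and 3, beside 0.753, 0.968 and 0.728 for all genes. The shares of members below the limit were near those of all genes.

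**Figure D2:**
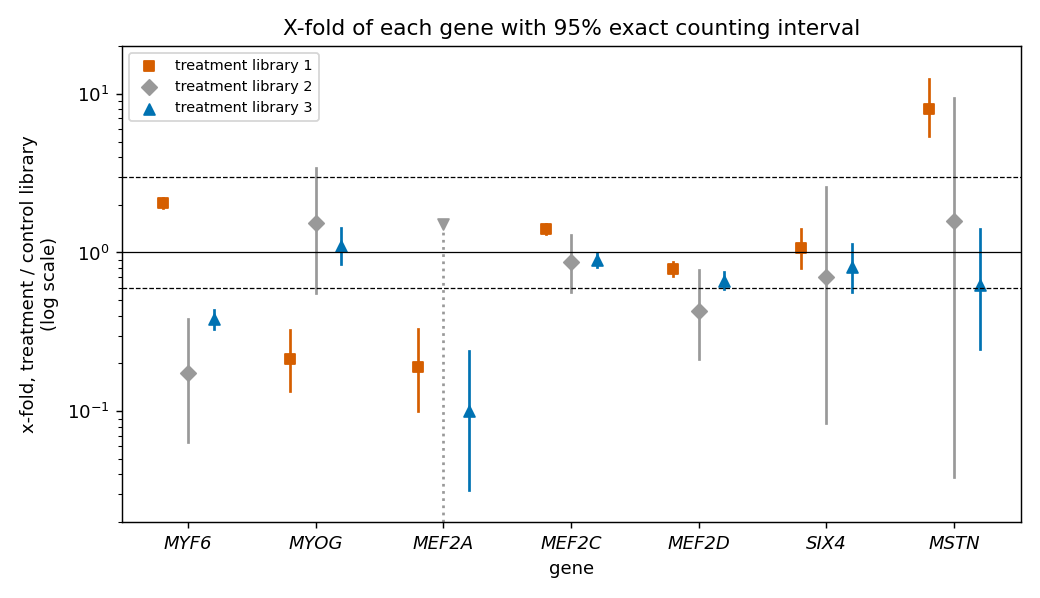
X-fold of each gene (y axis, log scale, treatment library divided by control library, per named goat count) with its 95% exact counting interval, for the 3 treatment libraries, with dashed lines at 0.6 and 3 and a dotted line up to the upper bound where the count is 0. The treatment libraries lie on both sides of 1 for MYF6, which is 2.05 in library 1 and 0.380 in library 3.

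MYF6 (unigene c3650_g1, 1640 bases), the bHLH factor of adult fibres, had 1556 counts in the control library, 2087 in treatment library 1, 6 in treatment library 2 and 262 in treatment library 3. This is 256, 523, 44.8 and 97.1 CPM, so treatment library 1 was above the control library and the other two were below it. The x-fold was 2.05 in treatment library 1 (95% exact Clopper-Pearson interval 1.91 to 2.19), 0.175 in treatment library 2 (0.0643 to 0.383) and 0.380 in treatment library 3 (0.332 to 0.433). These intervals, like those that follow, cover counting error only and compare libraries, not conditions. Between treatment libraries 1 and 3 the ratio was 5.38 (4.73 to 6.15). With directions that differ among the treatment libraries, the log2 fold change in edgeR was 0.21 with a standard error of 0.90 (adjusted p = 0.97), and without treatment library 1 it was -1.50. The 3 goat genes whose pattern over the 4 libraries was closest were PTPN3, U2SURP and VEGFA, with root mean square differences of 0.11, 0.21 and 0.21 in log2 CPM.

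MYOG (c8035_g1, 1358 bases), myogenin, had 178, 25, 6 and 87 counts in the control library and treatment libraries 1, 2 and 3. Its levels of 29.2, 6.26, 44.8 and 32.3 CPM show treatment library 1 alone below the control library. The x-fold there was 0.214 (0.135 to 0.327), while 1.53 (0.555 to 3.40) in treatment library 2 and 1.10 (0.843 to 1.43) in treatment library 3 could not be told from 1 at this depth. Treatment library 1 held 0.194 times the level of treatment library 3 (0.119 to 0.306), the opposite order to MYF6. In edgeR the log2 fold change was 0.01 with a standard error of 0.82 (adjusted p = 0.999). TMEM140, TSPAN14 and BTNL9 were closest in pattern, at 0.16, 0.21 and 0.23 in log2 CPM.

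MEF2A (c11370_g1, 2764 bases) had 113, 14, 0 and 5 counts, or 18.6, 3.51, 0 and 1.85 CPM. It was the member with the largest difference in the edgeR test, a log2 fold change of -2.42 with a standard error of 0.80, an unadjusted p of 0.00362 and an adjusted p of 0.136. The x-fold was 0.189 (0.10 to 0.330) in treatment library 1 and 0.0998 (0.0318 to 0.240) in treatment library 3. In treatment library 2 the count was 0, where the limit of 3 counts (22.4 CPM) lies above the control level. The exact interval, which sets its bound in another way, reached an x-fold of 1.51, so a lower level was not detectable there. GLUL, MTR and LPAR3 were closest in pattern, at 0.12, 0.17 and 0.18, with 25, 0 and 0 counts in treatment library 2.

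The lower MEF2A level held only for the unigene with a goat protein match. A further unigene from the same assembly component, c11370_g2 (2810 bases), has no goat protein match, takes the name MEF2A from its best nucleotide match and is outside the group's rule. It had 198, 302, 5 and 102 counts, or 32.5, 75.7, 37.4 and 37.8 CPM, so no treatment library was below the control library. Its x-fold was 2.33 (1.94 to 2.80), 1.15 (0.369 to 2.73) and 1.16 (0.906 to 1.48) in treatment libraries 1, 2 and 3. The longest run of bases shared with c11370_g1 was 12. With both unigenes summed, a choice made after the data were seen, the x-fold of MEF2A was 1.55, 0.731 and 0.776 and the edgeR log2 fold change turned to 0.44 (adjusted p = 0.913).

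The same kind of gap was common among other genes. For 435 goat genes with at least 50 control counts both in paired unigenes and in unpaired unigenes that carry the name by nucleotide match, the median x-fold of the paired unigenes was 0.296, 0.397 and 0.381 in treatment libraries 1, 2 and 3. That of the unpaired unigenes was 1.24, 0.827 and 0.935. The unpaired unigenes were higher in 90.8% of these genes in treatment library 1 and in 88.0% in treatment library 3. The gap for MEF2A, 3.58 and 3.41 on the log2 scale, was reached by 15.6% of them in treatment library 1 and by 0.690% in treatment library 3.

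**Figure D3:**
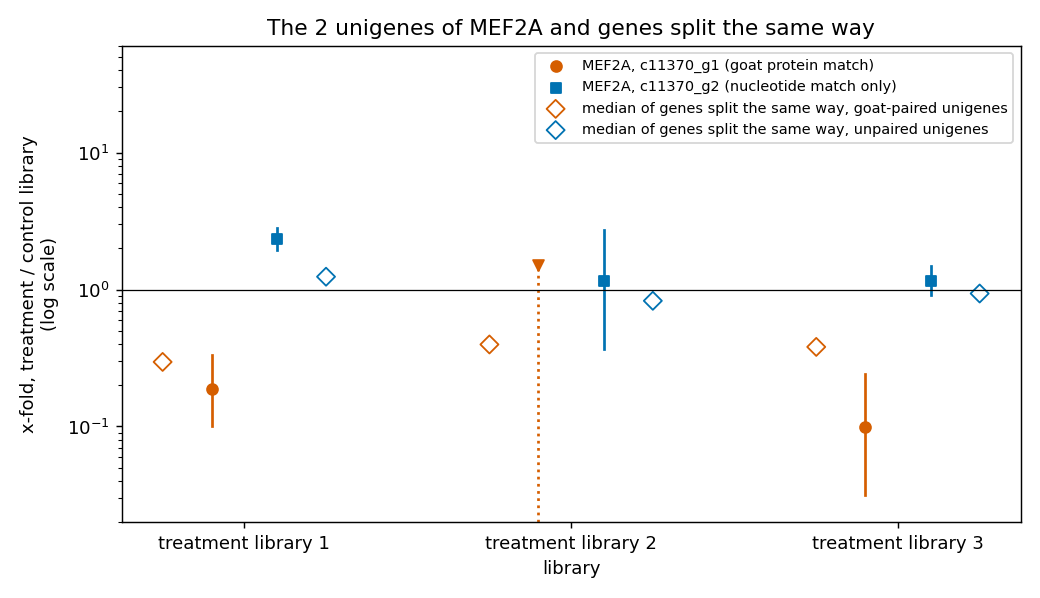
X-fold (y axis, log scale) of the 2 unigenes named MEF2A in each treatment library, with 95% exact counting intervals, and the median x-fold of the paired and of the unpaired unigenes of 435 genes (open diamonds). The unigene with a goat protein match is at 0.189 and 0.0998 in treatment libraries 1 and 3, and the other at 2.33 and 1.16.

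MEF2C (c13660_g2, 6222 bases) had 1305, 1201, 25 and 521 counts, or 214, 301, 187 and 193 CPM, the narrowest spread of the 3 MEF2 genes. Its x-fold was 1.40 (1.30 to 1.52), 0.871 (0.562 to 1.29) and 0.901 (0.812 to 0.998), within the limits in every treatment library. MEF2D (c13660_g1, 5850 bases) had 1166, 605, 11 and 343 counts, or 192, 152, 82.2 and 127 CPM, and all 3 treatment libraries were below the control library. Its x-fold was 0.791 (0.716 to 0.874), 0.429 (0.214 to 0.771) and 0.664 (0.587 to 0.749). In edgeR the log2 fold changes were 0.42 for MEF2C (standard error 0.84, adjusted p = 0.924) and -0.30 for MEF2D (standard error 0.78, adjusted p = 0.948).

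Both genes were assembled as several transcripts. The 2 MEF2C transcripts took 48.7 and 51.3% of the gene's counts in the control library, 51.5 and 48.5% in treatment library 1 and 51.8 and 48.2% in treatment library 3. The 3 MEF2D transcripts took 35.7, 31.3 and 33.0% in the control library and 30.3 to 35.9% each in treatment libraries 1 and 3. In treatment library 2 they had 2, 2 and 7 counts (18.2, 18.2 and 63.6%), and the MEF2C transcripts 11 and 14 counts. The genes closest in pattern were ARHGAP29, C18H19orf47 and ST3GAL6 for MEF2C, at 0.02 to 0.04 in log2 CPM, and WAC, LOC102179187 and PINK1 for MEF2D, each at 0.05.

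SIX4 was summed from 3 unigenes and had 129, 90, 2 and 46 counts, or 21.2, 22.6, 14.9 and 17.1 CPM. No library differed from the control library beyond counting error, with x-folds of 1.06 (0.804 to 1.40), 0.705 (0.0845 to 2.60) and 0.805 (0.562 to 1.13). The unigene c11849_g1 (4528 bases) carried 117 of the 129 control counts, c45181_g1 (832 bases) the other 12, and c33090_g1 (253 bases, 66% protein identity, best nucleotide match SIX5) had 0 counts in every library. The c45181_g1 unigene had 0 counts in treatment library 1 (x-fold at most 0.549) and 1 in treatment library 3. In edgeR the log2 fold change of SIX4 was 0.21 (standard error 0.78, adjusted p = 0.967), and STXBP3, BRD7 and AMACR were closest in pattern, at 0.02 to 0.03.

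MSTN (c2976_g1, 2627 bases) had 29 counts in the control library, 153 in treatment library 1, 1 in treatment library 2 and 8 in treatment library 3. Its levels were 4.76, 38.3, 7.47 and 2.97 CPM, and treatment library 1 had the highest value. The x-fold there was 8.05 (5.38 to 12.4), while 1.57 (0.0384 to 9.46) in treatment library 2 and 0.622 (0.246 to 1.40) in treatment library 3 could not be told from 1. Treatment library 1 held 12.9 times the level of treatment library 3 (6.40 to 30.5), while its ratio to treatment library 2, at 5.13 (0.907 to 204), could not be told from 1. The edgeR log2 fold change was 2.36 with a standard error of 0.95, an unadjusted p of 0.0159 and an adjusted p of 0.264. Treatment library 1 decided its sign, since without it the value was -0.19. PITX3, ASCC1 and LYSMD3 were closest in pattern, at 0.19, 0.20 and 0.23.

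For MYOD1 and PAX7 only unigenes named by nucleotide match could be looked at, which the group's rule does not take. The MYOD1-matching c965_g1 (1390 bases), shown above beside MYF6 and MYOG, had 100, 24, 0 and 32 counts, or 16.4, 6.01, 0 and 11.9 CPM. Its x-fold was 0.366 (0.224 to 0.576) in treatment library 1, at most 1.71 in treatment library 2 and 0.722 (0.469 to 1.08) in treatment library 3. A short unigene with the same best match, c1253_g1 (481 bases), had 10, 15, 1 and 13 counts. Its x-fold went the other way, at 2.29 (0.961 to 5.69), 4.55 (0.105 to 32.0) and 2.93 (1.19 to 7.47) in treatment libraries 1, 2 and 3. With both summed, a choice made after the data were seen, the x-fold was 0.541 (0.365 to 0.786), 0.414 (0.0104 to 2.35) and 0.923 (0.637 to 1.32). The edgeR log2 fold change of this sum was -0.16 (adjusted p = 0.975). For PAX7, 3 short unigenes summed to 4, 7, 1 and 9 counts, or 0.657 to 7.47 CPM, too few to order the libraries. The x-fold in treatment library 3, 5.08 (1.42 to 22.6), rests on 9 against 4 counts. It also rests on unpaired unigenes, which for most other genes stood above the paired ones in that library, as given above.

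The choice of total moved the values, most of all in treatment library 2. Relative to all counts, MYF6 had an x-fold of 1.44 (1.35 to 1.54) in treatment library 1 and 0.215 (0.188 to 0.245) in treatment library 3, MYOG had 0.151 (0.0948 to 0.230) and 0.625 (0.478 to 0.812), and MSTN had 5.65 (3.78 to 8.73) and 0.353 (0.139 to 0.791). In treatment library 2 every member was then at 0 to 0.0401 of the control level. MEF2C went from 1.40 to 0.986 (0.911 to 1.07) in treatment library 1. Relative to all goat-paired counts, including the unnamed mitochondrial unigenes, MYF6 was at 1.54, 0.00528 and 0.224 and MSTN at 5.96, 0.0642 and 0.382, with 0.5 counts added. GAPDH, the reference gene, itself stood at 18289, 16679, 31425 and 31474 CPM in the control library and treatment libraries 1, 2 and 3. In the edgeR fit, using all counts without TMM moved the median log2 fold change of all genes from -0.0152 to -1.59, and using named goat counts without TMM to -0.378.

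**Figure D4:**
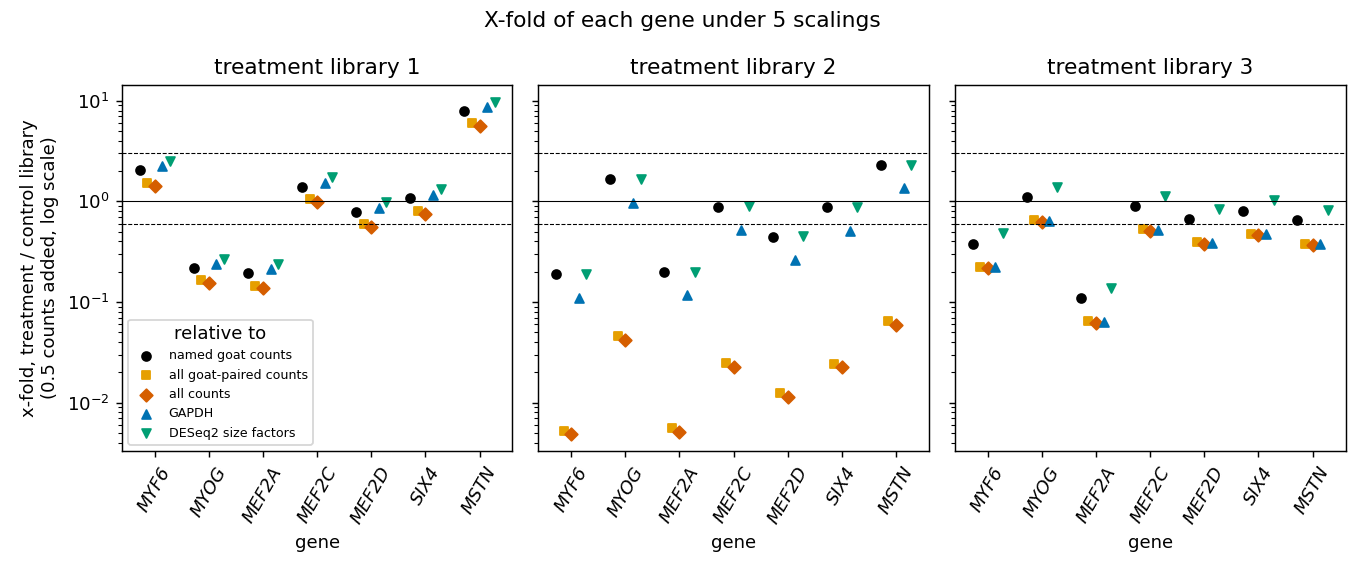
X-fold of the 7 genes (y axis, log scale, 0.5 counts added) in each treatment library under 5 scalings, drawn as symbols, with dashed lines at 0.6 and 3. Each scaling multiplies all genes of a library by 1 factor, so their order within a library is fixed by construction. In treatment library 2 the totals that include mitochondrial unigenes put all 7 genes below 0.6, and the share of all genes below it under these totals is not given.

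The genes around the members were read from lists of known partners. Of 19 other myogenic regulators tested (26 of 33 listed are in the table), 12 were below 0.6 in treatment library 1, 11 in treatment library 2 and 12 in treatment library 3, where 37.8, 31.3 and 38.1% of all genes were. In both libraries 1 and 3, 7 were below, as were 25.4% of all genes, and 1, 2 and 1 were above 3, beside 5.13, 15.7 and 2.73% of all genes. Their median x-fold was 0.401, 0.382 and 0.474, and edgeR called 0 of them, with 4 at an unadjusted p below 0.05, as were 11.7% of all genes. NFIX, which governs the fetal switch of muscle genes, had 2663, 159, 12 and 454 counts and x-folds of 0.0911, 0.205 and 0.385. SRF, the serum response factor that drives actin genes, had 830, 72, 0 and 221 counts, an x-fold of 0.132 (treatment library 1) and 0.601 (treatment library 3). PITX3 had the highest median x-fold of the list, with 80, 310, 3 and 16 counts, x-folds of 5.91 in treatment library 1 and 0.451 in treatment library 3, and the pattern closest to MSTN.

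Among the inhibitors of myogenic factors, ID1 passed the test. ID1, which binds the E proteins that MYOD1 and MYOG need as partners, had 32, 310, 23 and 173 counts, or 5.26, 77.7, 172 and 64.1 CPM, and every treatment library was above the control library. Its x-fold was 14.8 (10.2 to 22.0), 32.7 (18.3 to 57.6) and 12.2 (8.33 to 18.4), and in edgeR it rose by 4.50 on the log2 scale (standard error 1.01, adjusted p = 0.0196). Without treatment library 2 the adjusted p was 0.0391, without treatment library 1 it was 0.0967 and without treatment library 3 it was 0.133. With the highest unigene only it was 0.0598. Relative to all counts the x-fold in treatment library 2 was 0.836 and the adjusted p was 0.962. Of the 8 inhibitors tested (12 of 19 listed in the table), 2 were above 3 in all 3 treatment libraries, as were 1.27% of all genes, namely ID1 and HES1, a Notch target named after its values were seen (29, 85, 2 and 55 counts, adjusted p = 0.19 in edgeR). In treatment libraries 1, 2 and 3, 2, 3 and 0 of them were below 0.6 and 2, 4 and 2 above 3, beside the shares of all genes given above, and 2 had an unadjusted p below 0.05. The repressor YY1 had 206, 134, 2 and 73 counts, BHLHE40 had 193, 117, 1 and 116, and MXI1, with the lowest median x-fold, had 105, 15, 0 and 37.

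Of 26 MEF2 and myogenic cofactors tested (29 of 30 in the table), 15, 19 and 14 were below 0.6 in treatment libraries 1, 2 and 3, beside 37.8, 31.3 and 38.1% of all genes, and 1, 2 and 0 were above 3, beside 5.13, 15.7 and 2.73%. In all 3 libraries 9 were below, as were 13.5% of all genes. Their median x-fold was 0.529, 0.435 and 0.534, with 0 called by edgeR and 7 at an unadjusted p below 0.05, beside 11.7% of all genes. SMARCD3, a chromatin remodelling subunit that partners MYOD1, had the most control counts and the highest median, with 1694, 1668, 63 and 1372 counts and x-folds of 1.5, 1.69 and 1.83. CAMK2B, a kinase subunit that responds to calcium, had x-folds of 0.489, 0.276 and 0.324, and NFATC3, a factor controlled by calcineurin, had the lowest median, with 475, 33, 1 and 50 counts. RCAN1, an inhibitor of calcineurin, had 600, 5200, 4 and 99 counts and, like MSTN, x-folds on opposite sides of 1 in treatment library 1 (13.2) and treatment library 3 (0.372), and is named after its values were seen.

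The myostatin pathway (15 of 32 listed genes tested, 22 in the table) had median x-folds of 0.666, 1.47 and 0.655, with 0 called by edgeR and 4 at an unadjusted p below 0.05, beside 11.7% of all genes. In treatment libraries 1, 2 and 3, 7, 3 and 6 genes were below 0.6, beside 37.8, 31.3 and 38.1% of all genes, and 1, 6 and 1 were above 3, beside 5.13, 15.7 and 2.73%. Its most abundant gene, TCAP, a Z-disc protein that binds myostatin, had x-folds of 1.41, 0.213 and 1.05. SMAD4, the shared signal carrier, had 0.757, 0.622 and 0.622. FSTL1 had the highest median, with 97, 89, 44 and 79 counts and x-folds of 1.40, 20.6 and 1.84, and the receptor gene ACVR1B and LTBP3, a binder of latent TGF-β, shared the lowest, with 24, 1, 0 and 3 counts and 35, 7, 2 and 1 counts. FST, follistatin, the antagonist of myostatin, had 3, 15, 4 and 6 counts (adjusted p = 0.173 in edgeR), and is named after its values were seen. TGFBR1, a receptor, had 14 control counts and 0 in each treatment library and was not tested, and is named after its values were seen.

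Of 30 muscle target genes tested (31 of 44 in the table), 8, 15 and 11 were below 0.6 in treatment libraries 1, 2 and 3, beside 37.8, 31.3 and 38.1% of all genes, and 2, 3 and 2 were above 3, beside 5.13, 15.7 and 2.73%, with median x-folds of 0.898, 0.681 and 0.891. CKM, muscle creatine kinase and a classic MEF2 and bHLH target, had x-folds of 0.714, 1.33 and 1.61, and DES, desmin, had 1.02, 0.974 and 0.889. MYL1, a fast myosin light chain, had the highest median with 3.16, 1.55 and 3.42. The gene called ACTA1 was the only one of the list past the edgeR test, with 130, 6, 0 and 3 counts, and fell by 3.63 on the log2 scale (standard error 0.86, adjusted p = 0.0272), but a unigene whose best nucleotide match is ACTA1 is counted as ACTA2, with 238146, 98655, 4245 and 149433 counts. The adjusted p for ACTA1 was 0.055 without treatment library 2, 0.272 without treatment library 1, 0.317 without treatment library 3, 0.0598 with the highest unigene only and 0.962 relative to all counts, and DESeq2 gave none. XIRP1, an actin-binding protein of muscle, had 8844, 50671, 42 and 358 counts and x-folds of 8.74 and 0.0913 in treatment libraries 1 and 3, and is named after its values were seen.

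The satellite cell markers, which include the gene that the table calls MYF5, summed to 148, 1043, 157 and 70.8 CPM over 6 of 9 listed genes. SDC4 alone had 514, 3900, 14 and 101 counts, and the markers NCAM1 and VCAM1 had 0 to 5 counts in each library. The gene called MYF5 had 104, 26, 0 and 35 counts. Its x-fold was 0.381 in treatment library 1, at most 1.64 in treatment library 2 and 0.759 in treatment library 3. MET had 97, 125, 1 and 16 counts and x-folds of 1.97, 0.469 and 0.372. CDH15, M-cadherin, had x-folds of 0.917, 1.28 and 0.456.

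**Figure D5:**
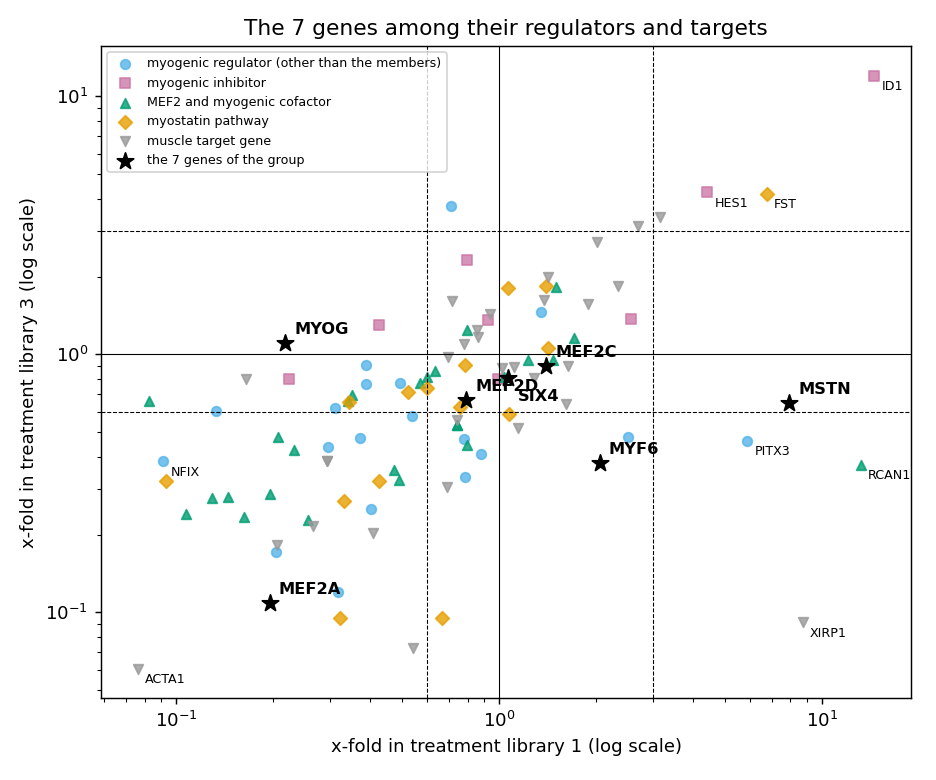
X-fold in treatment library 1 (x axis, log scale) and in treatment library 3 (y axis, log scale) of the 7 measured genes (stars) and of the listed genes with at least 20 counts, with 0.5 counts added and dashed lines at 0.6 and 3. MSTN, XIRP1, RCAN1 and PITX3 are above 3 in treatment library 1 and below 1 in treatment library 3, MYOG is low in treatment library 1 only, and ID1 is above 3 in both.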

How the data were processed

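Libraries were prepared by the authors with a kit that does not mark strand, sequenced on an Illumina HiSeq and, per the labels, checked with FastQC 0.10.1. Reads were assembled into 59774 unigenes, and the assembler, the counter and their versions are not given in the sources used here. The authors deposited expected counts per unigene and transcript, all whole numbers, with no pooling. The FPKM values, deposited relative to all counts, gave levels per length and an alternative scaling, while TPM and the files that sort unigenes into classes of FPKM were not used. A deposited table pairs 21220 unigenes with goat proteins and gives the percent identity of each match, and an annotation table gives sequences and best matches. The goat annotation behind the pairing is not named, so no chromosome positions are given.

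Expected counts were summed per goat gene name. The 25 paired unigenes without a name, which match mitochondrial proteins, took 23.8, 42.8, 97.9 and 55.2% of goat-paired counts in the control library and treatment libraries 1, 2 and 3. They were kept out of library sizes, and scaling by all goat-paired counts, as first planned, is an alternative. X-folds are ratios of shares of named goat counts with 95% exact Clopper-Pearson intervals, and 0.5 counts were added for the study's limits of 3 and 0.6. Genes with at least 20 counts were tested with edgeR 4.0.16 (TMM, quasi-likelihood) in R 4.3.3 and with DESeq2 1.42.0. The edgeR fit was also run on simulated counts that, apart from planted changes, gave all libraries the same gene composition. These libraries differ in composition, so that run cannot show how the test performs on them. The labels do not say that treatment libraries came from separate animals, so p-values measure only the spread between these libraries. Likeness of pattern was calculated over 4 libraries, with 0.5 counts added, among 5897 genes with at least 100 counts. The closest genes had 0 to 45 counts in treatment library 2, so that point rests on few counts. Nucleotide matches (E at most 1e-50) were used after the annotation and counts had been seen.

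Members, gene lists and tests were chosen with earlier results of these data known. The named genes are the members, GAPDH, the 3 genes closest to each member, and from each list the 2 genes with the most control counts, those past the edgeR test and those with the highest and lowest median x-fold among genes with at least 20 control counts. Others are marked as named after their values were seen, as were PTPRC, CD14, CD68, MET, NCAM1 and VCAM1. Some items are not reported here. Calculations were made in Python 3.11.15 with Biopython 1.88, scipy 1.17.1, numpy 2.4.6, matplotlib 3.10.9 and pandas 2.3.3.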

Additional observations from a re-analysis of the deposited data

How the results depend on the processing

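No paired analysis was possible because the control group has 1 library and shares at most 1 number with the treatment group. The count of members past the edgeR test was 0 under all 11 alternatives. The number of genes called over the whole table went from 51 to 86 with DESeq2 size factors, 104 without a filter, 106 at an identity of 80% or more, 10 with the highest unigene only, 4 with DESeq2 and 0 with all counts and no TMM, where 32 had an unadjusted p below 0.05. Leaving out 1 treatment library gave 1 to 9. Calls relative to named goat counts without TMM were 73, of which 65 were lower, against 29 lower of 51. The causes of these changes were not tested.

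Of 76 log2 fold changes recomputed, 60 kept their direction and 16 changed sign. MYOG was at -0.04 with DESeq2 size factors, -0.31 with named goat counts without TMM, -1.88 with all counts, -0.08 without a filter and -0.06 with the highest unigene only, and between -0.65 and 0.57 with a library left out. MYF6 was at -0.17 with named goat counts without TMM and -0.86 with all counts, and SIX4 at -0.15 and -1.29. MEF2C was at -0.98 with all counts. With 1 treatment library left out, MYF6 ranged from -1.50 to 0.69, SIX4 from -0.08 to 0.31 and MSTN from -0.19 to 2.82, each lowest without treatment library 1. MEF2A turned to 0.44 with unigenes added by nucleotide match, a choice made after seeing the data, and its x-fold in treatment library 1 to 1.55.

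Of 249 x-folds recomputed, 191 stayed within their counting interval, but most of these came from settings that leave the total nearly unchanged. All 21 stayed with the transcript counts, with either pseudocount, with the highest unigene only and without mitochondrial unigenes. Only 7 of 21 stayed relative to all counts, to deposited FPKM and to all goat-paired counts. Relative to GAPDH 13 stayed, and with DESeq2 size factors 15. Members below 0.6 numbered 7 in treatment library 2 and 6 in treatment library 3 relative to all counts and to deposited FPKM. Relative to all goat-paired counts with unnamed unigenes, the scaling first planned, they numbered 3, 7 and 6 in treatment libraries 1, 2 and 3. Relative to GAPDH they numbered 5 and 6 in treatment libraries 2 and 3. A change of total scales every gene of a library by 1 factor, and the share of all genes below 0.6 under these totals is not given. The numbers are therefore no result about the members. In treatment library 1, members below 0.6 numbered 1 at an identity of 80% or more, which leaves out MYOG. They also numbered 1 there with unigenes added by nucleotide match, which gave 1 in treatment library 3 as well. Members above the limit numbered 2 in treatment library 1 and 1 in treatment library 2 with limits of 2 and 0.5, and 1 in treatment library 2 with a pseudocount of 1. The share of all genes under these identity, match, limit and pseudocount settings is not given. These counts are therefore no result about the members either. Depth limits treatment library 2, where each member had 25 counts or fewer.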
